A study of Mus musculus with 31 samples.

Results

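Lipid-associated macrophages are macrophages that gather around large or dying fat cells, take up the lipid set free and break it down in their lysosomes. A set of 10 genes known from these cells was followed in mouse epididymal fat (eWAT, a visceral depot) and in liver. They were Spp1, Trem2, Gpnmb, Itgax, Cd9, Cd63, Mmp12, Ctsk, Atp6v0d2 and Fabp5. The genes were picked by symbol, with earlier results of these data known, and all 10 were among the 15987 genes measured in eWAT and the 13677 measured in liver. Their eWAT levels helped to choose them, so those levels are given as a description.

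Bulk RNA was sequenced from male F1 mice of the C57BL/6 strain, wild type and aged 24 weeks. Their 3 arms carry the diet tags HFLFD, HFD and LFD and are called HFLF, HF and LF here. The protocols in the labels say that every animal itself received chow to 6 weeks of age and LFD for the next 18 weeks. The tag is therefore read here as the paternal diet, which rests on the series title and is written in no sample label. eWAT had 6 HFLF, 6 HF and 4 LF libraries, and liver had 6 HFLF, 5 HF and 4 LF libraries. Whether animals of an arm shared a sire or a litter is not given in the sources used here, so the p-values measure only the spread between these animals.

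As background, TREM2 is a surface receptor for lipids and lipoproteins that signals through the adaptor TYROBP and the kinase SYK. In fat of obese mice it is known to be needed for macrophages to take on the lipid-handling state. Spp1 encodes osteopontin, a secreted protein that binds integrins and CD44. GPNMB is a glycoprotein of lysosomal membranes, and ITGAX (CD11c) is the integrin chain long used to mark macrophages of inflamed fat. CD9 and CD63 are tetraspanins, found in many cell types. MMP12 is macrophage elastase, CTSK is the collagen-cutting cathepsin K, ATP6V0D2 is a subunit of the proton pump that acidifies lysosomes, and FABP5 carries fatty acids inside cells.

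Depth ran from 9278083 to 27230205 counts per eWAT library and from 9225373 to 17268415 per liver library. Levels are CPM, a gene's counts relative to the counts of its library, with library sizes scaled by trimmed means of M values (TMM). The tissues matched their labels by level. The 10 adipocyte markers summed to at least 33640 CPM in eWAT (Fabp4 averaged 15950 CPM), and the 6 measured in liver to at most 206.5 CPM. The 10 hepatocyte markers summed to at least 103300 CPM in liver (Alb averaged 65430 CPM). All 10 were also measured in eWAT, where they summed to at most 6825 CPM. Cyp2e1 was by far the most abundant of them there, averaging 2806 CPM, while Alb averaged 58.4 CPM. The eWAT sum is therefore mainly a level of Cyp2e1. Of the eWAT libraries, HF2, HF6, LF3 and LF6 stood apart by testis transcripts. The summed level of 7 measured testis genes was 87.8 CPM in HF2, 131.8 in HF6, 25.6 in LF3 and 23.0 in LF6, against 0.135 to 4.59 CPM in the other 12, and 0 of 8 epididymis genes were measured. HF2 and LF3 also had the most macrophage RNA, and LF3 the most cell cycle RNA.

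The LF mean of Spp1 was carried by 1 library, as the choice of this gene already noted. In bulk tissue, fewer cells of a type and less RNA per cell cannot be told apart. Its level ran from 0.570 to 5.39 CPM in HFLF eWAT (median 1.37) and from 0.397 to 9.11 CPM in HF eWAT (median 1.93). In LF eWAT it was 1.62 in LF2, 157 in LF3, 2.42 in LF5 and 15.8 CPM in LF6. LF3 therefore held 88.8% of the summed LF level and stood far above every other library, while LF2 and LF5 lay among the HFLF and HF values. The arm means were 1.83 ± 1.81 CPM in HFLF (SD, n = 6), 2.998 ± 3.15 in HF (n = 6) and 44.3 ± 75.7 in LF (n = 4). Without LF3 the LF mean was 6.62 ± 7.97 CPM (n = 3).

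**Figure D1:**
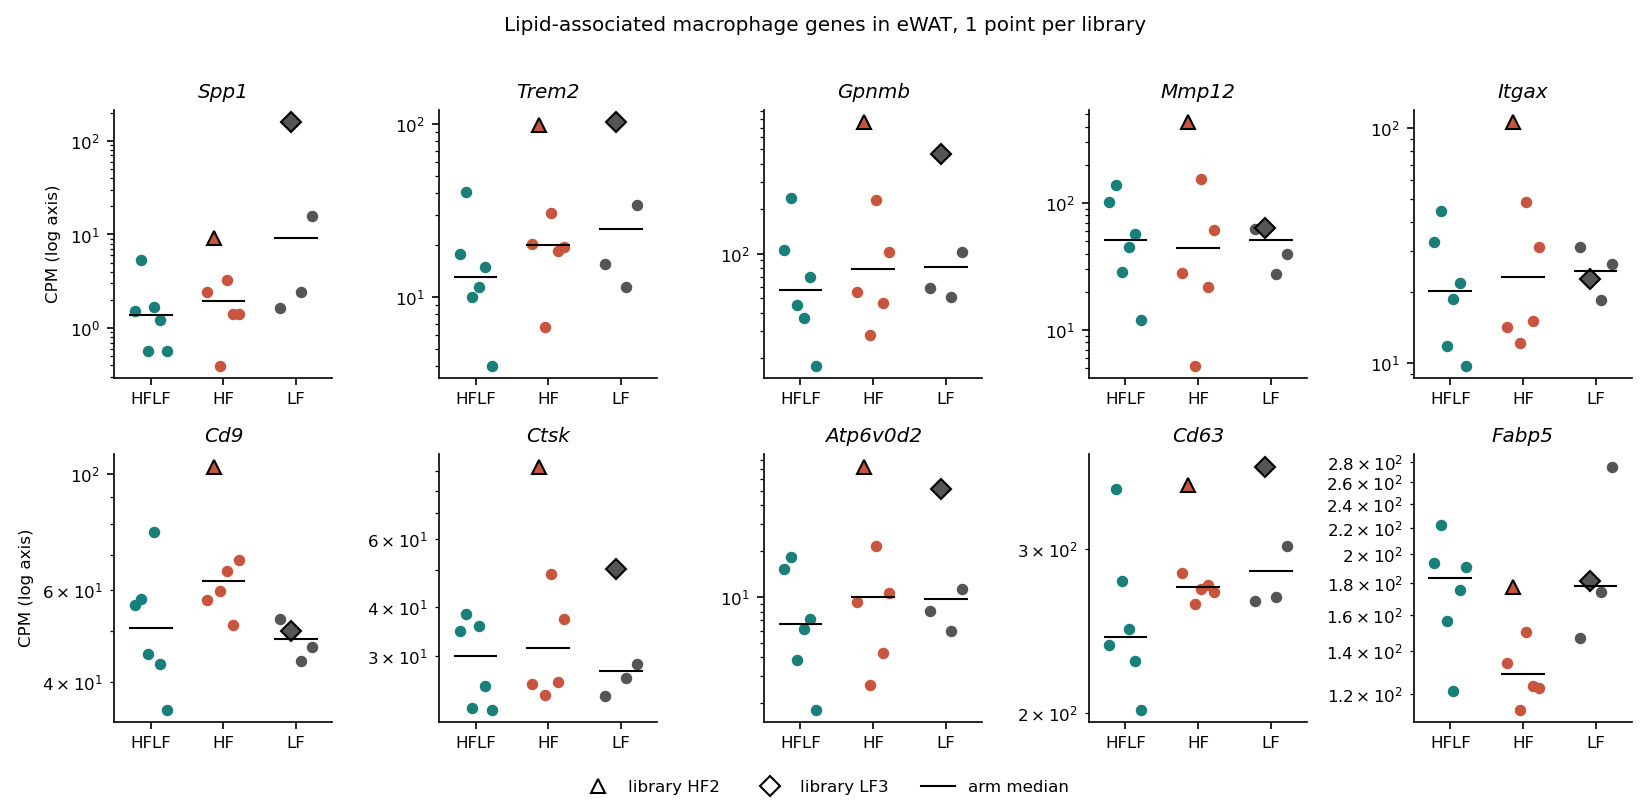
CPM per eWAT library on a log axis for each of the 10 genes, with HFLF, HF and LF from left to right, 1 point per library, the arm median as a line, library HF2 as a triangle and LF3 as a diamond. Spp1 is highest in LF3 at 157 CPM, while Mmp12 is highest in HF2 at 431 CPM and the arms overlap in all 10 panels.

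Trem2 was high in both HF2 and LF3. It ran from 4.02 to 40.5 CPM in HFLF (median 13.1) and from 6.75 to 98.6 CPM in HF (median 19.9). In LF it was 15.5 in LF2, 102 in LF3, 11.5 in LF5 and 34.2 CPM in LF6. The lowest library was HFLF6, and the next highest after LF3 and HF2 was HFLF2. Gpnmb followed the same libraries over a wider range. It ran from 17.7 to 237 CPM in HFLF (median 57.3), from 28.3 to 757 CPM in HF (median 78.97), and was 59.1 in LF2, 468 in LF3, 50.7 in LF5 and 102 CPM in LF6. HF2 held 62.2% of the summed HF level of Gpnmb and LF3 68.8% of the summed LF level. The acidification subunit Atp6v0d2 ran from 1.80 to 18.4 CPM in HFLF (median 6.64), from 2.62 to 72.2 CPM in HF (median 9.97), and was 8.04 in LF2, 51.4 in LF3, 5.93 in LF5 and 11.3 CPM in LF6. HF2 and LF3 were again the 2 highest libraries.

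Mmp12 and Itgax were high in HF2 and not in LF3. Mmp12 ran from 11.9 to 138 CPM in HFLF (median 51.2), from 5.24 to 431 CPM in HF (median 44.4), and was 62.3 in LF2, 63.1 in LF3, 27.4 in LF5 and 39.8 CPM in LF6. The highest and the lowest eWAT library for this elastase were both in HF, and the LF libraries lay inside that span. Itgax ran from 9.75 to 44.3 CPM in HFLF (median 20.3), from 12.2 to 106 CPM in HF (median 23.1), and was 31.3 in LF2, 22.9 in LF3, 18.5 in LF5 and 26.5 CPM in LF6. LF3, first of 16 libraries for Spp1 and Trem2, ranked 8 for Itgax and 5 for Mmp12.

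The promoters of Spp1, Trem2, Gpnmb and Mmp12 are shown because these genes moved together or apart in the 2 libraries. Each is the stretch before the RefSeq start of the gene in GRCm38.p6, read 5′ to 3′, ended before the annotated GENCODE start where that came first. Spp1 is chr5:104434861-104435110, Trem2 chr17:48346151-48346400, Gpnmb chr6:49036268-49036517 and Mmp12 chr9:7344147-7344380, all on the + strand. Capitals mark matches to the 4 motifs named after them.
Spp1: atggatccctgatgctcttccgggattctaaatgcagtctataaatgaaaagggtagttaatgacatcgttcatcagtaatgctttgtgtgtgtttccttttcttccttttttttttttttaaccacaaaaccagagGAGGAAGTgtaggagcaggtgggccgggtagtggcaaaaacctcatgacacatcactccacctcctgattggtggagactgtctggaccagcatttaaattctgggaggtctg
Trem2: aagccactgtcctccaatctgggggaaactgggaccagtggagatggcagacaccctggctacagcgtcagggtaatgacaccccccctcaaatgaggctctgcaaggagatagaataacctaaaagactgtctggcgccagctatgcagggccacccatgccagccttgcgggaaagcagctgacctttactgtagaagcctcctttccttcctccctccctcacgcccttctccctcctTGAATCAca
Gpnmb: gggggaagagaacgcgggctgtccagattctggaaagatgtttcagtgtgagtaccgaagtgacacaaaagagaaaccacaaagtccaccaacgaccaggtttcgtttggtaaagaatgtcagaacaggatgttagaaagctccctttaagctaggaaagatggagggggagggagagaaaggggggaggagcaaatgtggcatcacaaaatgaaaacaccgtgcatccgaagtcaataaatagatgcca
Mmp12: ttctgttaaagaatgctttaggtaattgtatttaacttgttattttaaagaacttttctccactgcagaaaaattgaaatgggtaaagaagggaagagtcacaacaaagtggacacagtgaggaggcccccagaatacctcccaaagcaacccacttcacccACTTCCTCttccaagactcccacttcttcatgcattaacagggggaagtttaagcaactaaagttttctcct
Searched on both strands were CACGTG (the E-box core of lysosomal genes), CATGTG (the core of the M-box bound by MITF), TGANTCA (a loosened AP-1 site) and GAGGAAGT (an 8-base form of the PU.1 site). In TGANTCA the N stands for any base, where the usual AP-1 site has C or G. No window held more than 1 match in all, so no matches overlapped. Spp1 and Mmp12 each held 1 match to GAGGAAGT, which 2.44% of 32851 RefSeq windows of 250 bases held. Trem2 held 1 match to TGANTCA, which 6.75% of windows held, and Itgax held 1 as well. The match of Trem2 has A as its middle base, so it is not the usual AP-1 site. Gpnmb held none of the 4, and CACGTG (6.02% of windows) was found in none of the 8 members with a window. CATGTG (12.3% of windows) was found in Cd9 alone. A match is a run of letters and not a measured site.

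The remaining genes varied less. Ctsk ran from 21.7 to 38.3 CPM in HFLF, 23.7 to 92.4 in HF and 23.6 to 50.3 in LF, with HF2 and LF3 highest. Cd9 ran from 35.4 to 77.5 CPM in HFLF, 51.4 to 103 in HF and 43.8 to 52.8 in LF. For Cd9 HF2 was the highest of 16 libraries and LF3 ranked 11. Cd63 spanned only 1.82-fold over all 16 libraries (202 to 367 CPM), with LF3 and HF2 at the top. Fabp5 averaged 177 ± 34.8 CPM in HFLF, 137 ± 23.5 in HF and 194 ± 55.9 in LF, and its highest library was LF6 at 275 CPM.

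Per kilobase of exon, the median level over the 16 eWAT libraries was highest for Cd63 (73.5 CPM per kb), then Fabp5 (46.2), Cd9 (26.6), Ctsk (18.1), Gpnmb (9.86), Mmp12 (7.07), Itgax (4.66), Trem2 (3.66), Atp6v0d2 (3.19) and Spp1 (0.998). In LF3 Spp1 reached 95.5 CPM per kb, above the 71.9 of Gpnmb and the 20.6 of Trem2 in that library. The spread between the lowest and highest library was least for Cd63 (1.82-fold) and greatest for Spp1 (397-fold). It was also small for the next genes by level, at 2.43-fold for Fabp5, 2.91-fold for Cd9 and 4.25-fold for Ctsk. From Gpnmb to Atp6v0d2 the spread was larger and did not follow the order of level. It was 42.8-fold for Gpnmb, 82.3-fold for Mmp12, 10.8-fold for Itgax, 25.4-fold for Trem2 and 40.0-fold for Atp6v0d2. With a median of 1.64 CPM and 5 counts in its lowest library, Spp1 was also the least precise of the 10, although none lay at or under 3 counts, the floor used for a gene not detected, in any eWAT library.

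Set side by side, HF2 and LF3 differed in which of the genes were high. Relative to the median of the other 14 libraries, HF2 stood at 13.2 for Gpnmb, 10.1 for Mmp12, 9.54 for Atp6v0d2, 5.93 for Trem2, 5.81 for Spp1 and 5.20 for Itgax. On the same scale LF3 stood at 8.19 for Gpnmb, 1.48 for Mmp12, 6.80 for Atp6v0d2, 6.14 for Trem2, 100 for Spp1 and 1.13 for Itgax. Trem2 differed by a factor of only 1.04 between these libraries. Spp1 was 9.11 CPM (100 counts) in HF2 and 157 CPM (1485 counts) in LF3, 17.3 times higher in LF3. Mmp12 was 6.83 times, Itgax 4.62 times and Cd9 2.06 times higher in HF2. Each is a single library, so these ratios have no replicate check.

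**Figure D2:**
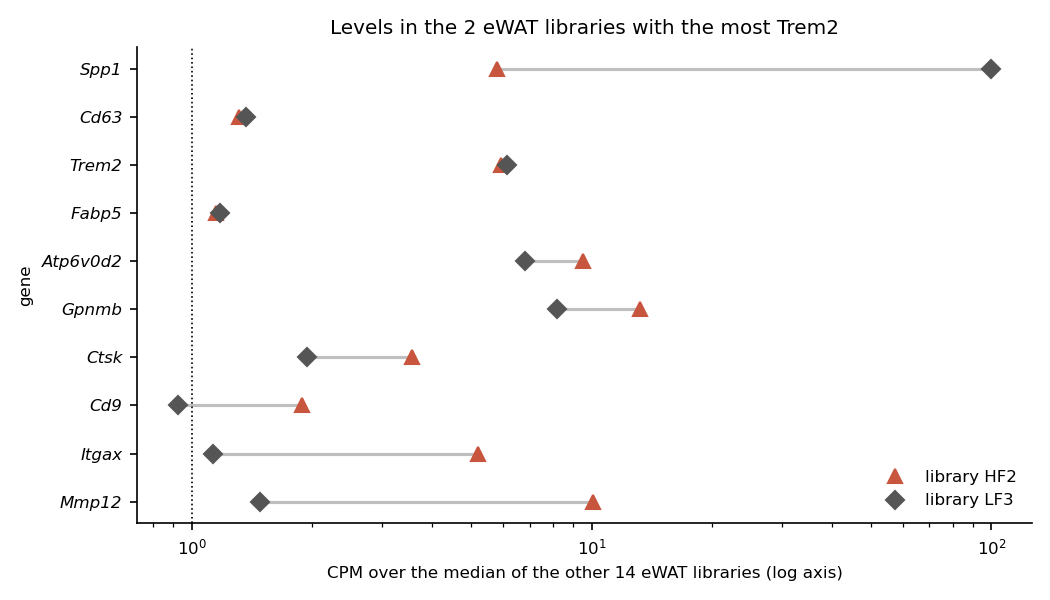
CPM of each gene in library HF2 (triangles) and library LF3 (diamonds), divided by the median of the other 14 eWAT libraries, on a log axis with 1 marked by a dotted line. The symbols meet for Trem2, Cd63 and Fabp5, LF3 lies at 100 for Spp1 and HF2 lies to the right for Mmp12, Itgax and Cd9.

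Cd68 and Adgre1, macrophage genes chosen after their values were seen, were level between the same libraries. Cd68 was 181.5 CPM in HF2 and 181.8 in LF3 (31.5 to 109 in the others), and the macrophage surface gene Adgre1 was 134 CPM in HF2 and 147 in LF3. Other genes split, and those named next were also chosen after their values were seen. Ms4a7, a membrane protein of the MS4A family, was 11.4 CPM in HF2 and 33.3 in LF3, against 4.56 to 9.90 in the others. Syngr1, a vesicle protein, was 7.19 CPM in HF2 and 22.5 in LF3. The IgG receptor Fcgr1 was 10.2 CPM in HF2 and 27.03 in LF3. In the other direction, the cholesterol exporter Abcg1 was 201 CPM in HF2 and 98.8 in LF3, and Cd44, a receptor of osteopontin, was 87.2 CPM in HF2 and 51.5 in LF3. Cell cycle genes, at 42.2 CPM summed in HF2 and 105 in LF3, and fibroblast genes, highest in LF3 at 8442 CPM, moved with LF3, and their part in the split was not tested.

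Ranked over the 10 genes, HF2 had a median rank of 1 among the 16 libraries and LF3 of 2, followed by HFLF2 (3) and HF4 (4). HF3 (15) and HFLF6 (16) were lowest. All 3 arms were present among the 4 highest libraries. LF6, second of all libraries for Spp1 with 15.8 CPM, had a median rank of 6.5. HF6, with the highest testis genes, had 19.4 CPM of Trem2, near the HF median, and a median rank of 7.

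Between arms, no gene of eWAT passed edgeR's quasi-likelihood test with Benjamini-Hochberg adjustment over all 15987 genes (0% in each of 3 comparisons, threshold 0.05). The comparisons of HF and of HFLF with LF share the LF libraries. DESeq2 passed 0.451% of the genes it tested in HF against LF, 0.469% in HFLF against LF and 0.857% in HFLF against HF, and limma voom 0%. Spp1 was the gene with the lowest fold change of all 15987 in HF against LF, at a log2 fold change of -3.93 ± 1.08 (SE, adjusted p = 0.689). In HFLF against LF it was -4.47 ± 1.10 (adjusted p = 0.282), and in HFLF against HF -0.54 ± 1.07 (adjusted p = 0.921). DESeq2 gave -4.60 for HFLF against LF and passed it (adjusted p = 0.0168), and limma voom gave -2.32 (adjusted p = 0.604). Without LF3 the edgeR values were -1.13 in HF against LF and -1.78 in HFLF against LF. Without the 4 libraries with testis transcripts they were -0.14 and -0.11, with LF2 and LF5 then the only LF libraries. The arms overlapped for Spp1 in every comparison.

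The other genes differed by less. Some signs turned when 1 library was left out, as for Trem2, Gpnmb and Atp6v0d2 in HF against LF, and others held. Mmp12 was 1.28 ± 0.94 in HF against LF (adjusted p = 0.731) and 0.16 without HF2. Trem2 was -0.33 ± 0.74 in HF against LF, -1.08 without HF2 and 0.68 without LF3. Gpnmb was 0.26 ± 0.95, -0.88 without HF2 and 1.53 without LF3. Atp6v0d2 was 0.08 ± 0.88, -0.97 without HF2 and 1.26 without LF3. In HFLF against LF, Trem2 was -1.26 ± 0.74, Gpnmb -0.98 ± 0.93 and Atp6v0d2 -1.06 ± 0.87. Without LF3 these were -0.27, 0.28 and 0.10. In HFLF against HF, Trem2 was -0.93 ± 0.67, Gpnmb -1.24 ± 0.86 and Mmp12 -0.86 ± 0.81, and without HF2 they were -0.19, -0.11 and 0.25.

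Fabp5 and Cd9 kept their signs in HF against LF with any 1 library of those arms left out. So did Spp1, Mmp12 and Ctsk, with Ctsk as low as 0.002 without HF2. Fabp5, whose level was lowest in HF, was -0.51 ± 0.18 in HF against LF (adjusted p = 0.689) and 0.37 ± 0.16 in HFLF against HF (adjusted p = 0.517). It kept both signs when any 1 library of those arms was left out (-0.61 to -0.29 and 0.29 to 0.46). Cd9 was 0.48 ± 0.20 in HF against LF (adjusted p = 0.689), at 67.5 ± 18.4 CPM in HF and 48.4 ± 3.91 CPM in LF, and 0.32 to 0.55 with any 1 library left out. Neither Fabp5 nor Cd9 passed the test.

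**Figure D3:**
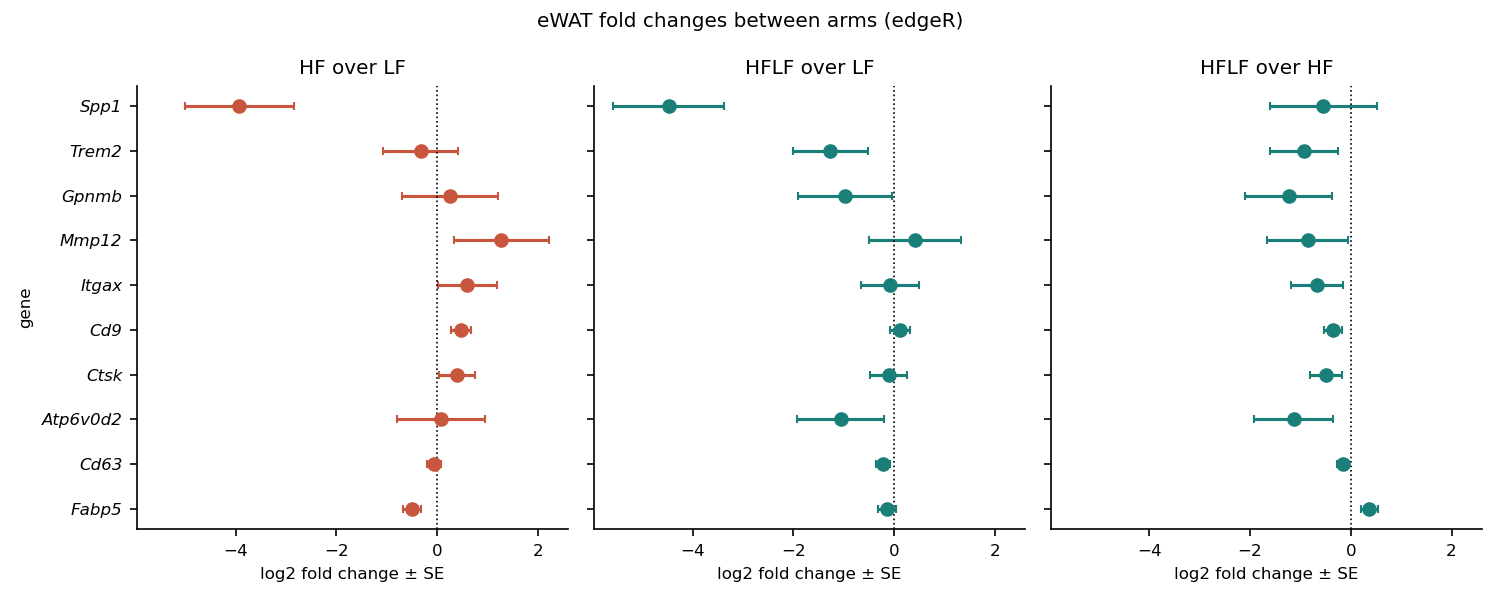
Log2 fold change of each gene in eWAT with its standard error as a bar, in HF over LF, HFLF over LF and HFLF over HF from left to right, with 0 as a dotted line. Spp1 lies at -3.93 and -4.47 in the comparisons with LF, and the other 9 genes lie between -1.26 and 1.28 in all 3.

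As counts, 6 of 10 genes had a higher and 4 a lower mean in HF than in LF, 2 higher and 8 lower in HFLF than in LF, and 1 higher (Fabp5) and 9 lower in HFLF than in HF. The median log2 fold change of the 10 was 0.17, -0.18 and -0.61 in these comparisons, beside medians of all genes of 0.00, 0.01 and 0.00 (to 2 decimals). With 1 library left out the first ranged from -0.36 (without HF2) to 0.62 (without LF3), the second from -0.35 (without HFLF2) to -0.01 (without LF3), and the third from -1.10 (without HFLF2) to -0.10 (without HF2). At an unadjusted p under 0.05 there were 3 of the 10 in HF against LF (7.04% of all genes), 1 in HFLF against LF (10.8%) and 1 in HFLF against HF (9.3%). Of all genes 2.82% were higher and 4.22% lower in HF than in LF at that p, 3.78% higher and 7.06% lower in HFLF than in LF, and 4.86% higher and 4.43% lower in HFLF than in HF. Since these levels helped to choose the genes, the counts are not read against those shares. For none of the 10 did the arms separate in eWAT, while among all genes 0.413% were higher and 0.513% lower in every HF than in every LF library. These shares were 0.513% and 0.713% in HFLF against LF and 0.651% and 0.106% in HFLF against HF.

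Macrophage genes in general followed the same libraries. The summed level of 19 general macrophage markers ran from 1253 to 2375 CPM in HFLF, 1785 to 3761 in HF (highest in HF2) and 1911 to 3984 in LF (highest in LF3). No defining marker was at 0, the lowest Cd68 being 31.5 CPM. In HFLF against LF 18 of 19 had a lower mean (median log2 fold change -0.67), and 0 passed the test. Of these, 13 were at an unadjusted p under 0.05, beside 7.06% of all genes lower at that p. Without LF3 18 were lower (median -0.43), 6 of them at that p, beside 943 of all 15987 genes. Lyz2, the lysozyme of macrophages, averaged 517 ± 180 CPM in HFLF and 822 ± 360 in LF, and the growth factor receptor Csf1r 187 ± 29.2 CPM in HFLF and 244 ± 47.5 in LF. In HFLF against HF 18 of 19 were lower as well (median -0.46), and in HF against LF 16 of 19 (median -0.20), again with 0 passing. In HFLF against HF 8 were at an unadjusted p under 0.05, beside 4.43% of all genes lower at that p. Without HF2 the median in HFLF against HF was -0.31, with 6 at that p. Without LF3 8 of 19 were lower in HF than in LF (median 0.06).

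Markers of other cells differed in mean between the arms too, some of them through single libraries, with 0 genes passing. In HFLF against LF all 12 B cell markers had a lower mean (median log2 fold change -3.11), as did all 10 hepatocyte markers (-2.59), all 7 measured testis markers (-4.56), all 10 cell cycle markers (-1.23) and 12 of 12 T and NK cell markers (-1.07). The B cell value rested on LF2, whose B cell markers summed to 4117 CPM, while those of LF3, LF5 and LF6 summed to 243 to 348 CPM, below the 366 to 724 CPM of the HFLF libraries. Without LF2 9 of 12 were lower (median -0.57), 0 at an unadjusted p under 0.05, beside 862 of all 15987 genes lower at that p. The median of the T and NK cell markers was then -0.36. Without LF3 the median of the cell cycle markers was -0.76, of the hepatocyte markers -2.37 and of the testis markers -3.51. Without the 4 libraries with testis transcripts the median of the testis markers was -2.43. With all libraries, Cyp2e1 was the least changed hepatocyte marker in HFLF against LF, at -0.25 ± 0.41 (SE). In HF against LF all 12 mesothelium markers had a higher mean (0.97). Resident macrophage markers had a median of -0.28 in HFLF against LF (9 of 11 lower) and 0.10 in HF against LF (5 of 11 lower). In HFLF against HF 10 of 11 were lower (median -0.38), with 0 passing. Of these, 7 were at an unadjusted p under 0.05, beside 4.43% of all genes lower at that p. Without HF2 the median was -0.42, again with 7 at that p. The part of these cells in the levels of the 10 genes was not tested.

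Over the 16 eWAT libraries, the log2 level of Trem2 had a Pearson r of 0.802 and a Spearman rho of 0.688 with the mean of these markers. Spp1 had r = 0.715 and rho = 0.529, Mmp12 r = 0.510 and rho = 0.553, Itgax r = 0.620 and rho = 0.647, and Fabp5 r = 0.0122 and rho = -0.0382. These are descriptions with no test, since the same levels helped to choose the genes and all points share libraries. Without HF2 and LF3, the 2 libraries farthest from the marker median, r over the other 14 was 0.581 for Trem2, 0.398 for Spp1 and 0.367 for Mmp12. It was 0.628 for Itgax without them, and for Cd9 it was 0.516 with all 16 and 0.526 without them. The 2 libraries thus raised r for Trem2, Spp1 and Mmp12 and not for Itgax or Cd9.

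**Figure D4:**
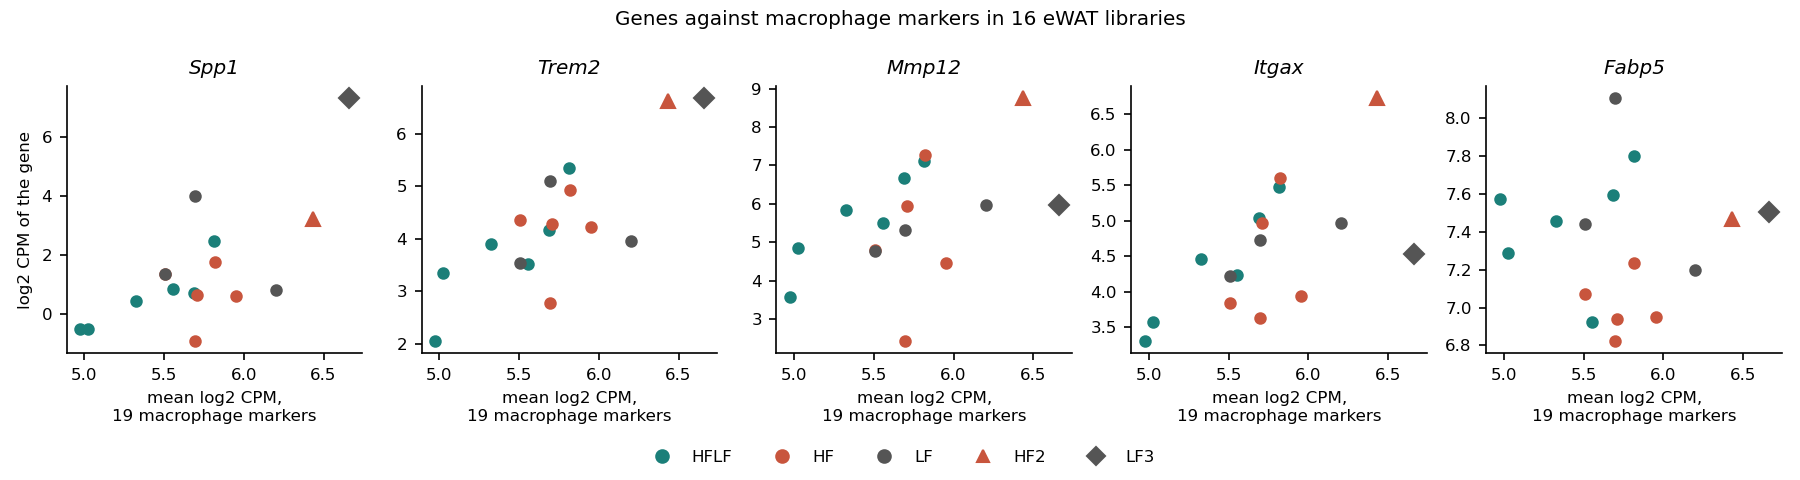
Log2 CPM of Spp1, Trem2, Mmp12, Itgax and Fabp5 (vertical axes) against the mean log2 CPM of 19 general macrophage markers (horizontal axes) in 16 eWAT libraries, coloured by arm, with HF2 as a triangle and LF3 as a diamond. Both marked libraries lie at the right, level with each other for Trem2 and far apart for Spp1, Mmp12 and Itgax, and Fabp5 shows no slope (r = 0.0122).

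Genes on the same pathway were described in the same way. Of 11 TREM2 signalling genes, 10 had a lower mean in HFLF than in LF (median log2 fold change -0.69, 8 at an unadjusted p under 0.05 and 0 passing), beside 13 of the 19 general macrophage markers at that p. Without LF3 8 of the 11 were lower (median -0.41), 5 at that p, beside 6 of the 19 general macrophage markers and 943 of all 15987 genes. The kinase Syk averaged 51.8 ± 13.9 CPM in HFLF and 83.9 ± 24.0 in LF (-0.69 ± 0.24, adjusted p = 0.300). The sheddase Adam10, which cuts TREM2 from the cell surface, averaged 74.7 ± 7.77 CPM in HFLF and 72.5 ± 16 in LF. The adaptor Tyrobp, chosen after its values were seen, was 98.5 CPM in HF2 and 102 in LF3, level as Trem2 was. Among all genes 7.06% were lower in HFLF at that unadjusted p.

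Osteopontin's receptors were mixed in the library with the most Spp1. The summed level of 11 osteopontin receptor and protease genes was lowest of all 16 libraries in LF3, at 793 CPM, a sum of which Itgb1 is the most abundant gene. The integrin chain Itgb1 was 605 CPM in HF2 and 398 in LF3, against 412 to 591 in the others, and Itgb5 was 297 CPM in HF2 and 195 in LF3, against 226 to 363 in the others. Its highest library was LF6, the second for Spp1. Itgav, the alpha chain that pairs with both and was chosen after its values were seen, was 45.0 CPM in HF2 and 44.7 in LF3, above the 17.9 to 42.6 of the others. In HF against LF 9 of the 11 genes had higher means (median 0.10), and in HFLF against LF 3 higher and 8 lower (median -0.09), with 0 passing. Without LF2 these medians were 0.34 and 0.04.

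The 18 genes of the proton pump and lysosome membrane had median log2 fold changes near 0. These were -0.10 in HF against LF, -0.02 in HFLF against LF and 0.03 in HFLF against HF, with 0 passing. The membrane protein Lamp1 was 831.5 CPM in HF2 and 819 in LF3, inside the 654 to 866 CPM of the others, and Lamp2 was 294.5 CPM in HF2 and 281 in LF3. Tcirg1, a pump subunit best known from osteoclasts and chosen after its values were seen, was higher in both, at 159 CPM in HF2 and 194 in LF3 against 52.6 to 126 in the others. Of the 4 transcription factors of the MiT/TFE family, which control lysosomal genes, Tfe3 was 69.9 CPM in HF2 and 62.2 in LF3 (47.2 to 75.0 in the others), and Tfeb was 30.6 CPM in HF2 and 35.1 in LF3 (19.9 to 38.6 in the others). Tfec, chosen after its values were seen, was 1.46 CPM in HF2 and 4.35 in LF3 (0.727 to 1.62 in the others).

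Of 16 other genes reported in lipid-associated macrophages, the most abundant 2 are also made in quantity by other cells of fat. Lpl, the lipase of blood lipoproteins, averaged 10460 ± 2420 CPM in HFLF, 8003 ± 843 in HF and 8576 ± 2030 in LF. Apoe, the lipid carrier, averaged 5505 ± 832 CPM in HFLF, 5700 ± 360 in HF and 6212 ± 1630 in LF. Lipa, the lysosomal lipase, and Nceh1, a cholesteryl ester hydrolase, both chosen after their values were seen, followed Trem2. Lipa was 276 CPM in HF2 and 293 in LF3 against 85.3 to 173 in the others, and Nceh1 was 54.3 CPM in HF2 and 48.0 in LF3 against 6.56 to 27.2 in the others. As a list, 11 of 16 had a lower mean in HFLF than in LF (median -0.21), with 0 passing. Without LF3 the median was -0.12.

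The 5 genes most like Spp1 over the 16 eWAT libraries, among 14481 genes with a mean of at least 1 CPM, were Rilpl2 (r = 0.927), Pld3 (0.927), Tcirg1 (0.924), 2310022A10Rik (0.914) and Fcgr1 (0.913). Those most like Trem2 were Tcirg1 (r = 0.966), Cd68 (0.964), Adam8 (0.953), Pld3 (0.952) and Slc37a2 (0.952). Tcirg1 and Pld3 stand on both lists. Without HF2 and LF3 the 5 values for Spp1 ran from 0.755 to 0.929 and those for Trem2 from 0.890 to 0.935 (n = 14). These are descriptions chosen as the highest of many, all over the same 16 libraries.

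In liver the 10 genes made a different picture. Spp1, which bile duct cells of the liver are known to make, ran from 21.5 to 93.7 CPM in HFLF (median 46.5), from 23.2 to 71.5 in HF (median 55.3), and was 349 in LF1, 32.4 in LF2, 62.9 in LF3 and 31.5 CPM in LF6. LF1 lay far above the span of the other 14 liver libraries, which was 21.5 to 93.7 CPM. The libraries numbered LF3 and HF2, which stood out in eWAT, lay inside that span for Spp1 at 68.4 CPM in HF2 and 62.9 in LF3. The median of Spp1 was 51.1 CPM in liver and 1.64 in eWAT, from tables normalised separately. No label says whether liver and eWAT libraries of 1 number come from 1 mouse, and no eWAT library LF1 was analysed here. In liver LF1 the 5 measured cholangiocyte markers summed to 45.3 CPM, near the LF median of 44.0. The mesothelium list, whose most abundant genes in liver were the epithelial keratins Krt8 and Krt18, summed to 1198 CPM in LF1, against 194 to 408 CPM in the other 14 liver libraries, and its part in the Spp1 level of LF1 was not tested.

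**Figure D5:**
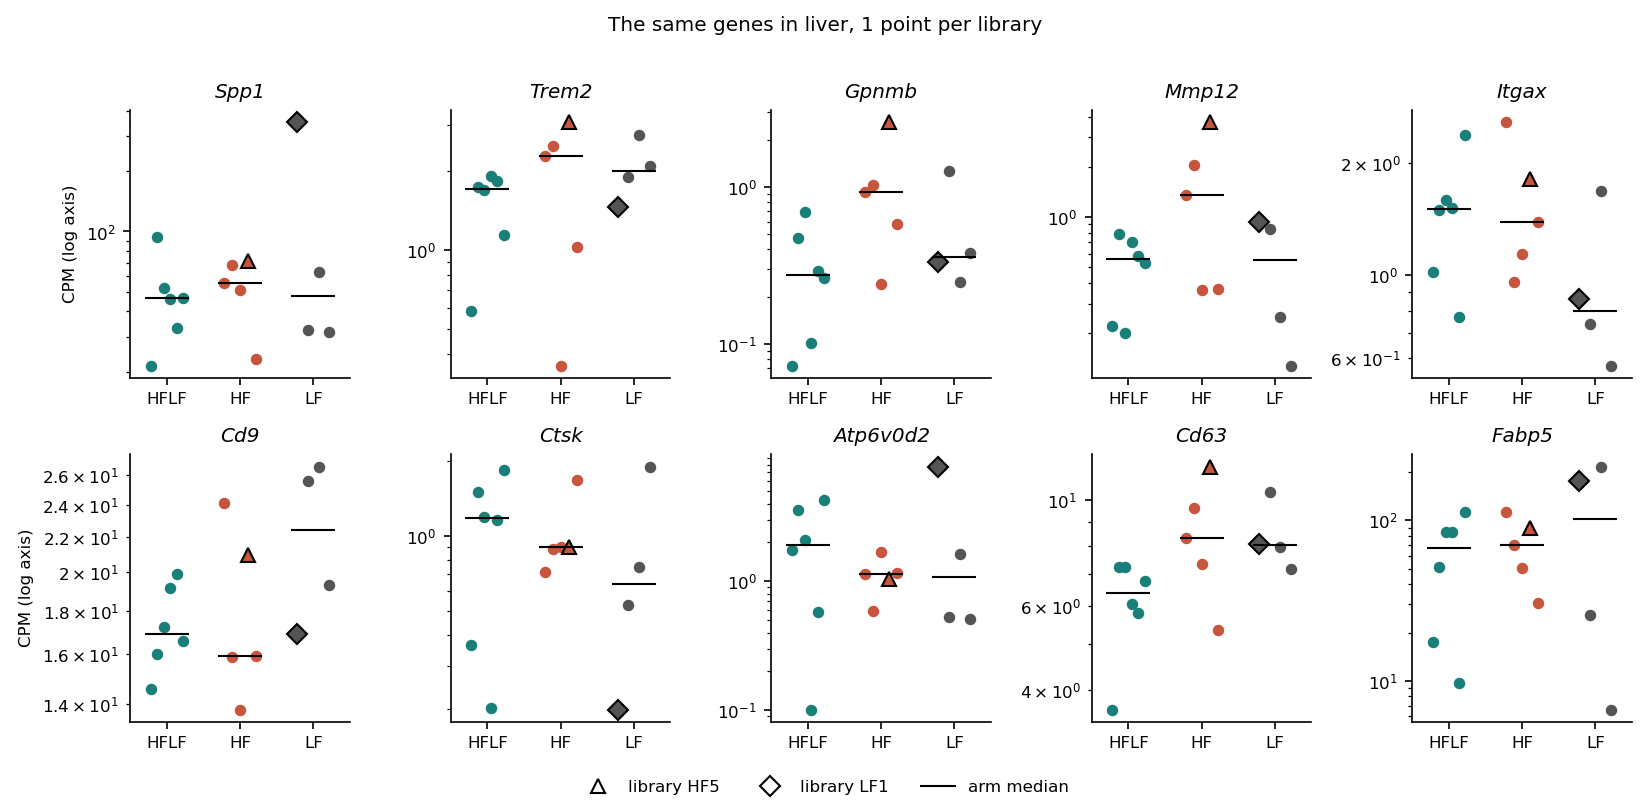
CPM per liver library on a log axis for the same 10 genes, with HFLF, HF and LF from left to right, 1 point per library, the arm median as a line, library HF5 as a triangle and LF1 as a diamond. LF1 stands out for Spp1 (349 CPM) and Atp6v0d2 (7.76 CPM), and HF5 is highest for Trem2, Gpnmb, Mmp12 and Cd63.

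Trem2, Itgax, Gpnmb and Mmp12 were scarce in liver. Trem2 ran from 0.361 to 3.06 CPM, Itgax from 0.571 to 2.57, Gpnmb from 0.0728 to 2.58 and Mmp12 from 0.127 to 3.69 CPM over the 15 libraries. Gpnmb was at or under 3 counts in 4 libraries, Mmp12 in 3, Ctsk in 2 and Atp6v0d2 in 1. HF5 was the highest liver library for Trem2, Gpnmb, Mmp12 and Cd63. Fabp5 varied most among the abundant genes, from 9.76 to 113 CPM in HFLF, 30.7 to 114 in HF, and was 177 in LF1, 25.6 in LF2, 217 in LF3 and 6.60 CPM in LF6.

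No liver gene passed the edgeR test in any comparison (0% of 13677). Spp1 had a log2 fold change of -1.14 ± 0.68 in HF against LF and -1.28 ± 0.65 in HFLF against LF, and without LF1 these were 0.34 and 0.21. Mmp12 was 1.59 ± 0.68 in HF against LF, at 1.57 ± 1.39 CPM in HF (n = 5) and 0.537 ± 0.407 in LF (n = 4), and -1.62 ± 0.62 in HFLF against HF. Gpnmb was -1.75 ± 0.61 in HFLF against HF, at 0.316 ± 0.236 CPM in HFLF (n = 6) and 1.07 ± 0.896 in HF. Both kept their sign without HF5 (Mmp12 -1.01 and Gpnmb -1.12 in HFLF against HF). At an unadjusted p under 0.05 there was 1 of the 10 in HF against LF (Mmp12, with 3.6% of all liver genes), 2 in HFLF against LF (Cd9 and Cd63, both lower, with 5.47%) and 3 in HFLF against HF (Gpnmb, Mmp12 and Cd63, all lower, with 1.86%). By direction, 1.92% of all liver genes were higher and 1.68% lower in HF than in LF at that p, 2.82% higher and 2.65% lower in HFLF than in LF, and 0.951% higher and 0.914% lower in HFLF than in HF. The arms overlapped for all 10 genes in liver, while 0.702% of all genes were higher and 0.636% lower in every HF than in every LF library, 0.424% and 0.519% in HFLF against LF, and 0.0804% and 0.11% in HFLF against HF. DESeq2 passed 0.00731% of liver genes in HF against LF, 0.127% in HFLF against LF and 0% in HFLF against HF. edgeR's adjusted p-values of the 10 ran from 0.868 to 1 over the 3 comparisons. The summed level of 19 general macrophage markers in liver was 227 to 428 CPM in HFLF, 293 to 548 in HF and 303 to 600 in LF.

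In GRCm38 with the GENCODE M21 annotation, Spp1 lies at chr5:104435118-104441050 and Trem2 at chr17:48346401-48354147, both on the + strand and coding for protein. Exons of Spp1 overlap Gm42793, a gene model of uncertain status, on the same strand, those of Mmp12 (chr9:7344381-7369499) overlap Mmp1b on the other strand, and those of Cd9 overlap Gm26728. The strand setting of the counting is not given in the sources used here, so reads of these pairs cannot be told apart. Cd9, Cd63 and Fabp5 have near copies in the genome (Cd9-ps, Cd63-ps and Fabp5l2), with which reads may have been shared.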

How the data were processed

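RNA-seq libraries of eWAT (16) and liver (15) were analysed separately. The submitters' processing notes name STAR and the build GRCm38.p6. The sources used here give no STAR version, counting tool, strand setting or annotation. The counts used are the deposited raw gene counts, in tables whose names say that the authors filtered them on CPM (the minimum is not stated). Deposited RPKM tables were not used, since their length divisor does not follow the gene. Symbols came from GENCODE M21 (15969 eWAT and 13662 liver identifiers matched).

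The 10 genes and all gene lists were chosen with earlier results of these data known. The rule for naming covered all 10 and, from each list, the 2 genes with the highest mean CPM in eWAT (or those past the threshold). It also covered the 5 genes most like Spp1 and Trem2 by Pearson r. It was not carried through, since for several lists of other cells these 2 genes are not named. Genes outside the rule are marked in the text as chosen after their values were seen. Krt8 and Krt18 are named as the most abundant of their list in liver. edgeR 4.0.16 in R 4.3.3 (glmQLFit, robust, TMM, 1 term per arm over all libraries of a tissue) gave log2 fold changes, standard errors and p-values, adjusted by Benjamini and Hochberg with a threshold of 0.05. The biological coefficient of variation was 0.219 in eWAT and 0.194 in liver. Log2 CPM used a prior count of 2. Permutation p-values of the correlations (100000 resamples, two-sided, scipy 1.17.1) were computed and are not reported, since the same levels helped to choose the genes. The fit and the permutation script were tested on simulated data. Alternatives were DESeq2 1.42.0, limma 3.58.1 voom, no TMM, a mean of at least 1 CPM, fits of 2 arms, a replicate block and leaving out libraries. Leaving out the testis-high libraries, or HF2 and LF3 together, was added after seeing the data, as were the gene lists without LF2, LF3 or HF2. Intervals of CPM cover the spread between libraries, and counts without molecular identifiers carry counting error besides. No 2 libraries of an arm agreed within sampling noise (67 pairs).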

Additional observations from a re-analysis of the deposited data

Results flagged for a closer look

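Within arms of 4 to 6 libraries, 1 library stood far from the others for a gene in 16 of 60 arm and gene groups, 12 in eWAT and 4 in liver, by Dixon's gap rule at 95%. For normal values chance flags about 1 in 20 groups, a rate that does not hold for CPM this skewed. The 12 eWAT flags come from the levels that helped to choose the genes, LF3 for Spp1 among them, so they only describe, and genes that share libraries are not independent.

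Library HF2 was flagged above the other 5 HF libraries of eWAT for the 7 genes named next. It had 98.6 CPM of Trem2, 757 of Gpnmb, 431 of Mmp12, 103 of Cd9, 92.4 of Ctsk, 72.2 of Atp6v0d2 and 351 of Cd63. It was also flagged for Spp1, at 9.11 CPM against at most 3.23. For Itgax and Fabp5 HF2 was the highest HF library without a flag. In LF eWAT, LF3 stood apart for Spp1 at 157 CPM, for Gpnmb at 468 and for Atp6v0d2 at 51.4. In HFLF eWAT, HFLF2 stood apart for Spp1 at 5.39 CPM against at most 1.67.

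In liver, LF1 stood apart for Spp1 at 349 CPM and for Atp6v0d2 at 7.76 CPM. LF2 stood apart for Gpnmb at 1.26 CPM and HF6 for Ctsk at 1.68 CPM, both at low counts.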

How the results depend on the processing

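The edgeR count of 0 genes passing in every comparison stayed at 0 without TMM, with limma voom, with genes of at least 1 CPM, with only 2 arms and without the testis-high libraries or HF2 and LF3. DESeq2 passed 12 genes in eWAT for HF against LF, 69 for HFLF against LF and 52 for HFLF against HF, and in liver 1, 11 and 0. With 1 library left out, 0 to 13 genes passed in eWAT for HFLF against LF (13 without LF5) and 0 in the other comparisons. The replicate block passed 1 gene in liver for HFLF against LF and changed no other count. Same-numbered libraries did not all deviate together (correlations of -0.361 to 0.411). Their median correlation was still above that of other pairs in every comparison but HF against LF in eWAT (-0.0437 against -0.0228). It was 0.205 against -0.037 in eWAT for HFLF against HF, and 0.21 against -0.0826 in liver for HF against LF. The main fit did not use the number, and whether it marks a pairing or a batch was not tested. In the description by correlation with the macrophage markers, HF2 and LF3 are also the 2 libraries farthest from the marker median. Without them r was lower for 8 genes. It was not lower for Itgax (0.620 with 16 libraries, 0.628 with 14) or Cd9 (0.516 with 16, 0.526 with 14). No p-value is read from these correlations, since the same levels helped to choose the genes. Of 1031 fold changes of the 10 genes under alternatives, 1016 moved by less than the spread between libraries. A further 14 moved by more (6 of them with 1 library left out), and 1, Spp1 in HFLF against LF with DESeq2, passed. That spread is the SD of the gene's log2 CPM within arms, HF2 and LF3 included, and it ignores sign. Trem2 in HF against LF counts among the 1016 although it went from -0.33 to -1.08 without HF2 and 0.68 without LF3. The 1016 is therefore no measure of stable fold changes. TMM moved the median of all genes by less than 0.1 on the log2 scale in each comparison. The cause of these differences was not tested. Depth limits Gpnmb, Mmp12, Ctsk and Atp6v0d2 in liver, where some libraries held 3 counts or fewer.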
